A study of Homo sapiens with 4 samples.

Results

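The H3K27ac peaks of band 8q24, the distal end of the long arm of human chromosome 8, were described in MOLM13 cells under 2 drug treatments. The members are all peaks on chromosome 8 that start at or beyond 116.7 Mb on GRCh38. They number 7392 of 55852 peaks in the OTX015 list and 10846 of 86207 peaks in the list of SNDX-50469 plus OTX015. The stretch from 127 to 130 Mb, which holds MYC, PVT1 and CCDC26, was left out of every value below unless stated, and 6657 and 9538 peaks over 25.44 Mb remained. At the proximal edge the last OTX015 peak outside the band was 120 bp wide with a fold enrichment of 3.72 and the first inside was 187 bp wide with 3.77, while the corresponding combination peaks were 176 bp wide with 3.31 and 133 bp wide with 3.77.

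MOLM13 is a human acute myeloid leukemia (AML) cell line with an MLL-AF9 fusion. A 16 hour exposure was to 500 nM OTX015, a BET protein inhibitor, or to 500 nM SNDX-50469, a Menin inhibitor, plus 500 nM OTX015, and 1 ChIP library per treatment was made by Tn5 tagmentation of the precipitated fragments. The question asked here is how the peaks differed when SNDX-50469 was given together with OTX015 rather than OTX015 alone. Cells given vehicle or SNDX-50469 alone were not analysed here. With 1 library per treatment the differences below have no replicate check and were not tested.

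Acetylation of lysine 27 on histone H3 marks active promoters and enhancers, and BET proteins read acetylated histones and recruit the machinery of transcription elongation. Menin is a cofactor of MLL1 and of MLL fusion proteins, and its inhibitors detach these from chromatin. Band 8q24 is known as a site of recurrent copy number gain in AML and other cancers. Copy number and the input libraries were not examined here, and their part in the density of peaks was not tested. It spans gene-poor stretches and, near the telomere, a dense run of small housekeeping genes, zinc finger genes and the LY6 family.

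The libraries differed in estimated background, which touches every comparison of cover. The background, solved from the lowest peaks under a Poisson model since the lists give no read numbers, was 0.764 fragments per base with OTX015 and 1.47 with the combination, a ratio of 1.92 that stands for depth only if fragments were extended alike. By this estimate a peak entered the combination list from 4.76 times background and the OTX015 list from 6.54 times. When both lists were held to 6.54 times background, 160 combination peaks remained in the band. They covered 249 kb, against 3885 kb for OTX015, so the direction of the cover comparison turned. This cut is the lowest value of the OTX015 list, so all 6657 OTX015 peaks stayed and the combination list alone was trimmed. The turn is thus not a like-for-like comparison of the treatments. In that setting 0 of 27 bins and 0 of 168 genes were covered more with the combination within 10 kb of the 5′ end, and 167 genes were covered less, so each order of bins, genes and groups by excess below holds for the lists as deposited and not at common enrichment. In the band, 1 constant background without local correction gave the −log10 p within 0.1 for 99.5% of peaks with OTX015 and for 99.0% with the combination, and on the other chromosomes for 98.1% and 99.0%. Myeloid marker genes elsewhere in the genome carried cover within 10 kb of the 5′ end at 10 of 12 genes with OTX015 and 12 of 12 with the combination, with 0 to 9.85 kb and 0.255 to 10.8 kb per gene. Each of the B cell, T cell and erythroid lists had cover at 1 of 4 genes in both lists, and the epithelial list at 0 and 1 of 4. Among the markers at 0 in both were PAX5, MS4A1, CD3E, CD2, GATA1, HBB and EPCAM.

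H3K27ac peaks lay over a large share of 8q24 under both treatments. Peaks covered 3885 kb, or 15.3% of the band, with OTX015 and 7146 kb, or 28.1%, with the combination. This is 1.84 times more length from 1.43 times as many peaks. The rest of chromosome 8 was covered at 6.34% and 15.2%, and the other chromosomes at 0.486% and 0.626%. The band thus held the highest cover of these areas in both lists, and the combination to OTX015 ratio of 1.84 lay between that of the rest of chromosome 8 (2.39) and that of the other chromosomes (1.29). The band contributed 11.9% of all OTX015 peaks and 11.1% of all combination peaks.

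The individual peaks were low and mostly narrow. Median width was 405 bp with OTX015 and 470 bp with the combination, with middle ranges of 217 to 686 bp and 251 to 887 bp. The median fold enrichment was 3.62 and 3.52, or 7.05 and 5.23 times background. The tallest peak of the band reached a fold of 7.65 with OTX015 and 6.53 with the combination. A −log10 q of 2 or more was reached by 518 OTX015 peaks (7.78%) and 1801 combination peaks (18.9%), and of 5 or more by 4 and 7 peaks. At the lowest value their list allows stood 18.0% and 8.67% of the band's peaks. Peaks of 5 kb or wider numbered 28 with OTX015 and 65 with the combination.

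A larger share of peaks met the other list in the band than on the rest of chromosome 8 or over all chromosomes. Of the OTX015 peaks, 3929 (59.0%, Wilson 95% interval 57.8 to 60.2, counting only) met a combination peak by at least 1 bp, against 33.3% of OTX015 peaks over all chromosomes and 45.4% on the rest of chromosome 8. In the other direction 3672 combination peaks (38.5%, 37.5 to 39.5) met an OTX015 peak, against 21.0% over all chromosomes and 23.9% on the rest of chromosome 8. A region that is more densely covered meets other peaks more often, so the covered shares belong beside these values. Combination peaks held 47.7% of the OTX015 cover while covering 28.1% of the band, and OTX015 peaks held 25.95% of the combination cover while covering 15.3%. On the rest of chromosome 8 combination peaks held 35.9% of the OTX015 cover while covering 15.2%. The left-out stretch had 69.7% of its OTX015 peaks met. On the other chromosomes 30.6% of the OTX015 cover lay under combination peaks that covered 0.626% of the sequence.

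Where the lists met, the combination peaks were often the wider. In the band 2778 pairs met one-to-one, with a median width of 473 bp with OTX015 and 663.5 bp with the combination, and the combination peak was the wider in 1768 pairs (63.6%). The corresponding share was 66.5% on the rest of chromosome 8 and 51.0% on the other chromosomes. A single combination peak spanned up to 7 OTX015 peaks, and 446 combination peaks met 2 or more. In the reverse direction 273 OTX015 peaks met 2 or more combination peaks, up to 5. The median enrichment of the pairs was 7.05 times background with OTX015 and 5.28 times with the combination, each close to the lowest value its own list allows, and the median ratio of 0.747 was the same on the rest of chromosome 8.

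Cover was uneven along the band. Before the MYC stretch, 10.3 Mb with 47 protein-coding 5′ ends were covered at 11.7% with OTX015 and 30.8% with the combination, a ratio of 2.64. From 130 to 135 Mb the values were 15.75% and 33.03%. Between 135 and 138 Mb, where a single protein-coding gene starts, cover fell away to 6.10% and 5.97%, and 17.8% of the OTX015 peaks there met a combination peak. From 138 to 141 Mb cover was 16.2% and 24.2%. From 141 to 143 Mb it was 34.3% with OTX015 and 32.1% with the combination, and in the distal rest, with 76 protein-coding 5′ ends, it was 25.4% and 36.3%. These stretches were drawn after the values of the bins were seen. The excess of the combination was thus confined neither to gene-rich nor to gene-poor sequence, but it was absent from 2 of the 6 stretches.

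**Figure D1:**
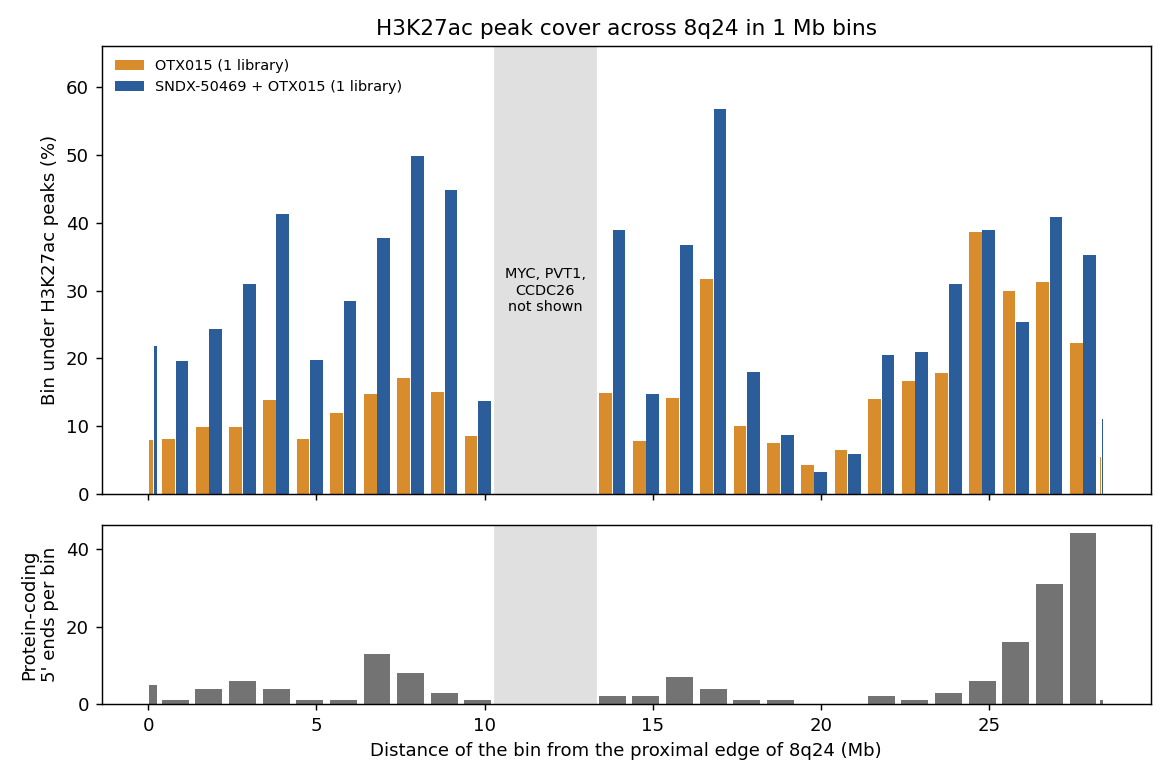
Percent of each 1 Mb bin under H3K27ac peaks (upper panel, OTX015 in orange and the combination in blue, 1 library each) and the number of protein-coding 5′ ends per bin (lower panel), against distance from the proximal edge of 8q24, with the bins of MYC, PVT1 and CCDC26 shaded and not shown. The combination bars are the higher in 24 of 27 bins, the gap is widest about 8 Mb from the edge, and the lists are close to each other around 20 and 25 Mb from the edge.

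In 1 Mb bins, 24 of 27 were covered more with the combination and 3 less, and 13 reached 2 times the OTX015 cover. In the lists as deposited the highest ratio was 3.11, in the bin from 119 Mb (9.94% and 30.9%), which holds MAL2, CCN3, ENPP2, TAF2, DSCC1 and DEPTOR. The most covered bin of the combination list started at 133 Mb and held SLA, CCN4, NDRG1 and ST3GAL1. It was covered at 31.7% with OTX015 and 56.8% with the combination. Next in the combination list were the bins from 124 Mb (17.2% and 49.9%), with the genes TMEM65, TYW2, RNF139, TATDN1, NDUFB9, MTSS1, ZNF572 and SQLE, and from 125 Mb (15.0% and 44.8%), with WASHC5, NSMCE2 and TRIB1. With OTX015 the bin from 141 Mb was covered most, at 38.6% against 38.8% with the combination, and it holds PTK2, DENND3, SLC45A4, GPR20, PTP4A3 and C8orf90.

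The 3 bins covered less with the combination did so although its list had the lower requirement for enrichment. The bin from 136 Mb went from 4.30% with OTX015 to 3.25% with the combination, and the bin from 137 Mb from 6.46% to 5.96%. Neither has a protein-coding 5′ end, and together with the bin from 135 Mb (7.55% and 8.71%), where KHDRBS3 starts, they were the least covered full bins of both lists. The bin from 142 Mb is of another kind, since it starts 16 protein-coding genes, among them TSNARE1, ADGRB1, ARC, PSCA and the steroid hydroxylases CYP11B1 and CYP11B2. It was covered at 29.98% with OTX015 and 25.4% with the combination. When the combination list was shortened to the number of OTX015 peaks, the 3 bins together held 407 kb with OTX015 against 263 kb with the combination, and all 3 stayed lower. At a −log10 q of 2 or more they held 88.8 and 88.0 kb, and 1 of the 3 was then higher with the combination.

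The order of the bins was similar in the 2 lists. Over the 25 full bins the percent covered had a Spearman correlation of 0.793 and a Pearson correlation of 0.652 between the lists, and the number of protein-coding 5′ ends had Spearman correlations of 0.722 with the OTX015 cover and 0.726 with the combination cover, and Pearson correlations of 0.508 and 0.352. The bins are neighbours on 1 chromosome and share their libraries, so these values are descriptions. In the 9 full bins with 0 or 1 genes the median cover was 8.15% with OTX015 and 18.0% with the combination. It was 14.6% and 37.8% in the 12 bins with 2 to 9 genes. In the 4 bins with 10 or more it was 26.1% and 36.5%. The 3 ranges overlapped in both lists.

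Gaps without a peak were short. The median gap between peaks was 1.88 kb with OTX015 against 1.13 kb with the combination. The longest OTX015 gap, chr8:119846542-119888999, ran for 42.5 kb over the 5′ ends of DSCC1 and DEPTOR, and 19 combination peaks lay in it. Another of 40.2 kb, chr8:123301204-123341383, over part of the ATAD2 gene, held 20 combination peaks. The 3 others among the 5 longest, of 37.9 to 40.4 kb, lay between 135 and 138 Mb and held 5 to 6. The longest combination gap, chr8:135833429-135894310, was 60.9 kb long. All 5 of the longest combination gaps lay between KHDRBS3 and FAM135B, and 6 to 10 OTX015 peaks lay in each.

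Peak cover of the band in the deposited lists was only weakly concentrated at the 5′ ends of genes. The profile by distance was not recomputed for stricter peaks. Within 1 kb of a protein-coding 5′ end 21.4% of bases lay under OTX015 peaks and 40.2% under combination peaks. Beyond 100 kb from any 5′ end the values were 12.4% and 21.6%, so cover near the 5′ end was 1.72 and 1.86 times that of the farthest sequence. On the other chromosomes the same ratios were 17.8 and 13.6, and on the rest of chromosome 8 they were 2.34 and 2.25. Cover in the band was highest not within 1 kb but at 1 to 5 kb, at 23.6% and 43.6%. From there it declined in steps to 16.6% and 32.3% at 50 to 100 kb. The excess of the combination was present in every distance class, with ratios from 1.75 beyond 100 kb to 1.95 at 50 to 100 kb.

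**Figure D2:**
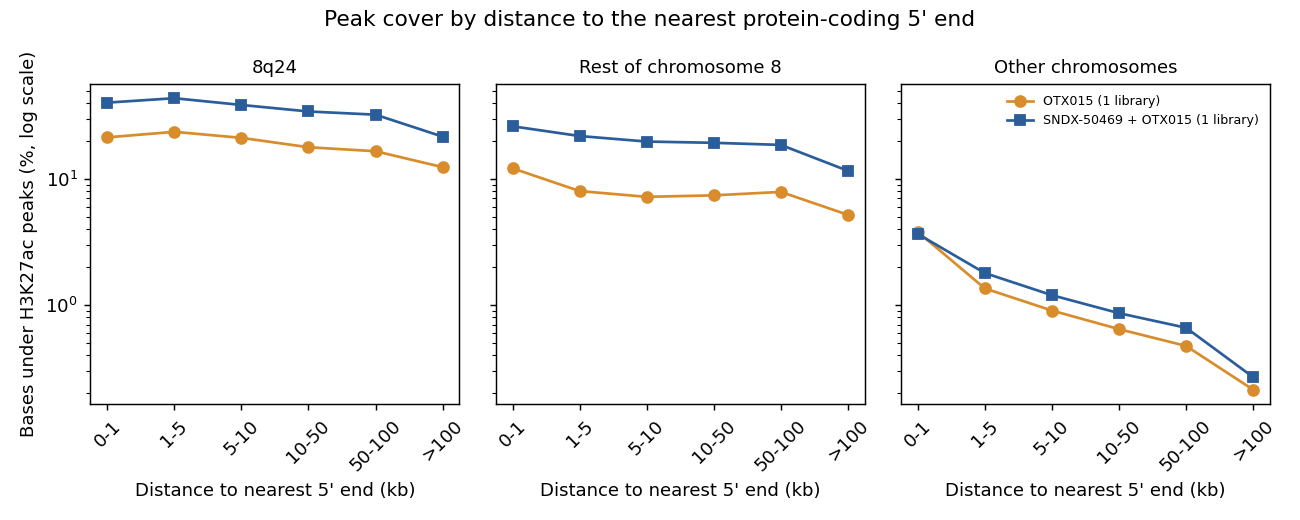
Percent of bases under H3K27ac peaks (log scale) by distance in kb to the nearest protein-coding 5′ end, in 8q24, the rest of chromosome 8 and the other chromosomes, with OTX015 in orange circles and the combination in blue squares (1 library each). In 8q24 the lines run nearly flat, from 21.4% to 12.4% and from 40.2% to 21.6%, while on the other chromosomes they drop by 17.8 and 13.6 times. The highest points of the 8q24 lines are at 1 to 5 kb, at 23.6% and 43.6%.

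Few of the band's peaks were promoter peaks. Only 121 OTX015 peaks (1.82%) and 193 combination peaks (2.02%) had their nearest protein-coding 5′ end within 1 kb, against 7.86% and 5.60% on the other chromosomes. On the rest of chromosome 8 the shares were lower still, at 1.37% and 1.42%, so this is not particular to the band. Beyond 100 kb lay 47.6% and 46.7% of the band's peaks, against 27.6% and 24.4% on the other chromosomes and 47.8% and 45.5% on the rest of chromosome 8. Sequence beyond 100 kb made up 13.19 of 25.44 Mb of the band and 1479 of 2943 Mb of the other chromosomes. On the rest of chromosome 8 it made up 63.4 of 116.7 Mb. Within 1 kb lay 0.306 Mb of the band. A larger share of the peaks near 5′ ends met the other list, and cover was also higher there. Of OTX015 peaks within 1 kb 80.2% met a combination peak, and of those beyond 100 kb 48.6% did. The rest of chromosome 8 had the same order, with 67.1% and 37.3%. In the combination list 51.3% of the peaks within 1 kb and 33.2% of those beyond 100 kb met an OTX015 peak. Combination peaks covered 40.2% of the band's bases within 1 kb and 21.6% beyond 100 kb, and OTX015 peaks 21.4% and 12.4%. The overlaps thus cannot be read apart from cover.

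Protein-coding gene bodies were covered more than other sequence, and bodies of long noncoding RNA genes were not with OTX015. Protein-coding gene bodies make up 41.9% of the band and were covered at 18.4% with OTX015 and 35.8% with the combination. Bodies of long noncoding RNA genes alone were covered at 11.6% and 23.1%, and sequence in neither at 13.5% and 22.3%. The ratio between the lists was 1.94, 1.99 and 1.66 in these classes.

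In the lists as deposited, nearly every gene of the band had an H3K27ac peak at its promoter under at least 1 treatment. Of 168 protein-coding genes, 106 (63.1%) had an OTX015 peak within 1 kb of the 5′ end, against a background of 15.0% over all protein-coding genes. With the combination 153 genes (91.1%) had one, against 15.4%. On the rest of chromosome 8, 213 and 353 of 510 genes had one. The median gap between peaks of the band was 1.88 and 1.13 kb, so a promoter of this size would often meet a peak anywhere in it. The background shares come mostly from chromosomes covered at 0.486% and 0.626%, and are not shares for sequence covered like the band. At a −log10 q of 2 or more, 30 and 64 of the 168 promoters had a peak. As deposited, peaks were in both lists at 100 promoters, in the combination list alone at 53, in the OTX015 list alone at 6 and in neither at 9. The following genes were chosen after their values were seen. The 6 were SAMD12, HAS2, KHDRBS3, PTK2, CYP11B1 and SCX, with 0.115 to 0.268 kb of OTX015 cover at the promoter, and their wider surroundings were covered in both lists. The 9 without a peak were AARD, LRATD2, KCNK9, AGO2, ADGRB1, LY6D, MAFA, MAPK15 and KIFC2, and each had cover elsewhere within 10 kb of its 5′ end in both lists.

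Within 10 kb of the 5′ end all 168 genes had cover in at least 1 list, with a median of 4.16 kb with OTX015 against 8.31 kb with the combination. The combination cover was the longer at 152 genes (90.5%) and the shorter at 16 (9.52%), against 89.5% and 10.5% on the rest of chromosome 8 and 61.3% and 38.7% over all genes with cover. It was at least 2 times as long at 83 genes (49.4%), against a background of 46.1% over all genes with cover, and no more than 50% as long at 4 genes (2.38%), against 27.9%. The share of genes past 2 times was thus near the background, while the share at no more than 50% was below it. That background comes mostly from chromosomes covered at 0.486% and 0.626%, and is not one for sequence covered like the band. On the rest of chromosome 8 the share past 2 times was 68.7%. The share at no more than 50% was 3.28% there, beside 2.38% in the band. The median difference was 4.17 kb in the band, 2.56 kb on the rest of chromosome 8 and 0.147 kb over all genes with cover. Neighbouring genes share windows, above all where 2 genes start back to back, so the genes are not independent of one another. The gene groups below were chosen with earlier results known, and their counts are to be read against the 90.5% of the band's genes covered more and the 49.4% past 2 times. With these shares a group in which all or nearly all members were covered more does not stand apart from the band.

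**Figure D3:**
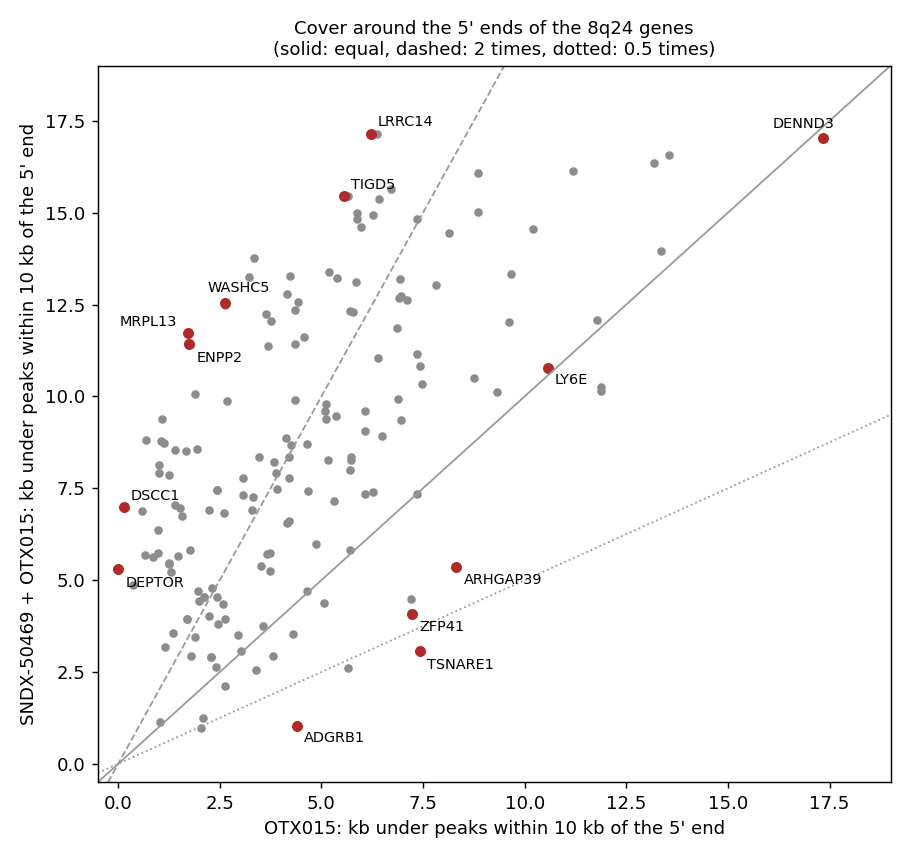
Kilobases under H3K27ac peaks within 10 kb of the 5′ end of each of the 168 protein-coding genes of 8q24, OTX015 on the horizontal and the combination on the vertical axis (1 library each), with lines of equal cover (solid), 2 times (dashed) and 0.5 times (dotted). Of the points 152 lie above the solid line, LRRC14, MRPL13 and WASHC5 among the farthest, and 16 lie below it, TSNARE1 and ADGRB1 among the farthest.

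The largest excess of the combination was at 4 neighbours near the telomere. LRRC14 went from 6.21 kb with OTX015 to 17.2 kb with the combination. RECQL4, a DNA helicase that starts back to back with it, went from 6.37 to 17.2 kb. LRRC24 had 3.33 and 13.8 kb and C8orf82 3.23 and 13.2 kb. A single combination peak of 12.5 kb, chr8:144504401-144516937, reached into the windows of LRRC14 and RECQL4, where the longest OTX015 peak was 2999 bp. The 9 OTX015 peaks that reached into the LRRC14 window had a median width of 550 bp, and the 5 combination peaks one of 3222 bp, so fewer and longer peaks made up the combination cover.

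The other genes with the largest excess also had longer peaks in the combination list. MRPL13, a mitochondrial ribosomal protein gene, had 1.72 and 11.7 kb, with a longest peak of 1.06 kb with OTX015 against 4.29 kb with the combination. WASHC5, a subunit of the WASH complex of endosomal actin assembly, had 2.64 and 12.5 kb, and so did NSMCE2, a SUMO ligase of the SMC5/6 complex, which shares its promoter region. TIGD5, a gene derived from a transposase, had 5.55 and 15.5 kb. All 8 of these genes stayed higher with the combination at a −log10 q of 2 or more (8.36 and 52.9 kb in sum) and with equal numbers of peaks (31.7 and 112 kb). At that q cut WASHC5 and NSMCE2 had only 0 and 0.263 kb each. LRRC14 and RECQL4, with overlapping windows, had 15.1 and 15.3 kb with the combination. The cut itself favoured the combination, since the band's cover ratio was then 3.91, so staying higher under it is weak support. At common enrichment all 8 were lower, with 31.7 kb in sum with OTX015 and no combination cover. The sums count shared windows more than once.

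The largest deficits lay at 141 to 145 Mb. TSNARE1, a gene of the t-SNARE family, had 7.42 kb with OTX015 against 3.07 kb with the combination. Its longest OTX015 peak, chr8:142406999-142411167, was 4.17 kb wide, while the longest combination peak in the window was 0.584 kb. ADGRB1, an adhesion receptor gene of brain, had 4.39 and 1.03 kb. LY6S had 5.66 and 2.62 kb and the zinc finger gene ZFP41 7.23 and 4.07 kb. ARHGAP39, a gene of the GTPase activating protein family, had 8.32 and 5.35 kb, and C8orf90 had 7.20 and 4.49 kb. OPLAH, the 5-oxoprolinase of the glutathione cycle, and EXOSC4, an RNA exosome subunit that starts beside it, had 11.9 kb each with OTX015, against 10.2 and 10.3 kb with the combination. All 8 stayed lower with equal numbers of peaks. At a −log10 q of 2 or more 3 were lower (ZFP41, LY6S and ARHGAP39), 4 were higher and TSNARE1 had no peak in either list. The 8 windows then kept 14.3 of 64.0 kb of OTX015 cover in sum, and the band 514 of 3885 kb. That cut passed 7.78% of the band's OTX015 peaks and 18.9% of its combination peaks. A change of direction under it therefore does not show that these deficits lay among weak peaks.

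**Figure D4:**
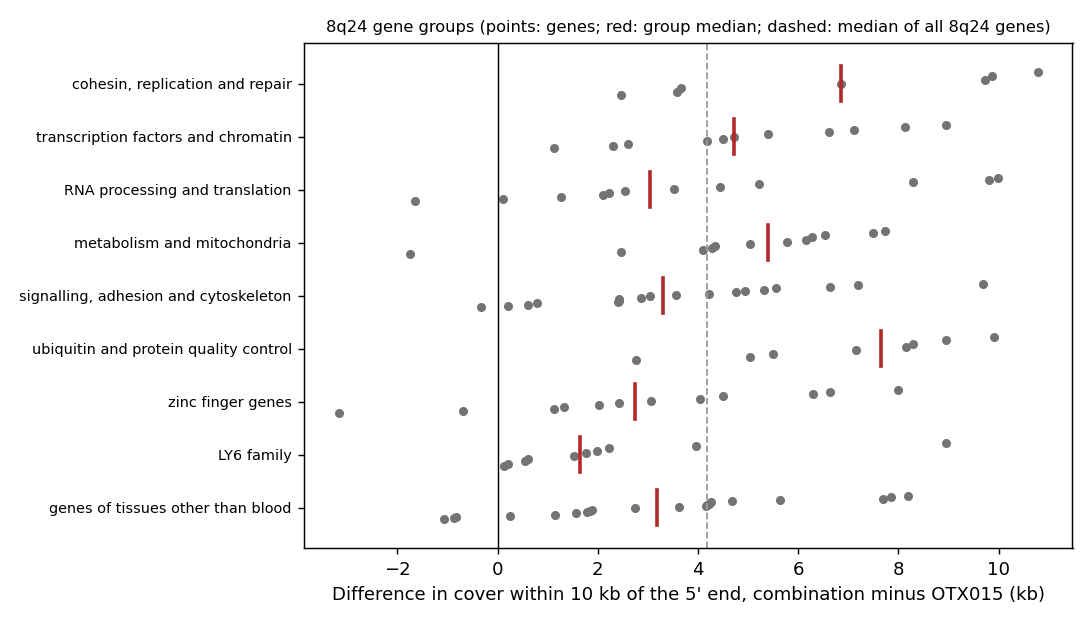
Difference in cover within 10 kb of the 5′ end, combination minus OTX015 in kb, for the members of 9 gene groups of 8q24 (points, 1 per gene), with the median of each group (red) and of all 168 genes of the band (dashed, 4.17 kb). Every group median is above 0, from 1.65 kb for the 10 listed LY6 family genes to 7.65 kb for the ubiquitin and protein quality control genes, and the zinc finger, RNA processing, metabolism, signalling and other-tissue groups each hold members below 0.

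Genes of cohesin, DNA replication and repair were covered more with the combination in 7 of 7, as were most genes of the band. They had a median of 2.64 kb with OTX015 against 11.5 kb with the combination, and 5 of them reached 2 times. Besides RECQL4 and NSMCE2, MTBP, an MDM2-binding protein that acts in the firing of replication origins and starts back to back with MRPL13, had 1.72 and 11.5 kb. DSCC1, a subunit of the clamp loader that establishes sister chromatid cohesion, had 0.133 kb with OTX015, no peak at its promoter there, and 6.98 kb with the combination. These 4 had the largest differences of the group. The others, chosen after their values were seen, were RAD21, the cohesin subunit (4.21 and 7.79 kb), TONSL of replication fork repair (9.66 and 13.3 kb) and ATAD2, itself a bromodomain protein (2.099 and 4.55 kb).

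Transcription factor and chromatin genes followed the same direction in 11 of 11, with medians of 3.08 and 7.86 kb and 8 past 2 times. MAF1, a repressor of RNA polymerase III, had 6.71 kb with OTX015 against 15.7 kb with the combination. ZHX2, a homeobox repressor, had 4.42 and 12.6 kb. PHF20L1, a reader of methylated lysine, had 1.00 and 8.12 kb, and its promoter carried a peak in the combination list alone. TAF2, a TFIID subunit, had 1.26 and 7.86 kb.

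RNA processing and translation genes were covered more with the combination in 11 of 12, with medians of 4.95 and 9.03 kb and 5 past 2 times. EEF1D, a subunit of the exchange factor of translation elongation, had 5.64 and 15.5 kb in a window largely shared with TIGD5. TYW2, a tRNA modifying enzyme, had 1.08 and 9.38 kb, with a promoter peak in the combination list alone. PUF60, a splicing factor, had 7.82 and 13.03 kb. EXOSC4 was the member with less.

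Genes of metabolism and mitochondria were covered more in 11 of 12, with medians of 6.35 and 11.2 kb and 5 past 2 times. SQLE, the squalene epoxidase of cholesterol synthesis, had 1.07 kb with OTX015 against 8.79 kb with the combination, and its promoter carried a peak in the combination list alone. PYCR3 of proline synthesis had 7.34 and 14.8 kb. CYC1, the cytochrome c1 of respiratory complex III, had 5.77 and 12.3 kb, and GPAA1 of the GPI transamidase had 6.92 and 13.2 kb. OPLAH was the member with less.

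Signalling, adhesion and cytoskeleton genes included loci with long cover. Of 18 genes 17 were covered more with the combination, with medians of 6.09 and 10.2 kb and 7 past 2 times. ADGRB1 and ARHGAP39, both covered less, could be counted here by function but were not in this group. ENPP2, which encodes autotaxin, the enzyme that makes lysophosphatidic acid, had 1.74 and 11.4 kb. ASAP1, an Arf GTPase activating protein, had 2.68 and 9.87 kb at its 5′ end, and over the gene body with 10 kb either side 63.0 and 212 kb. TRIB1, a pseudokinase that directs the degradation of C/EBP proteins, had 5.70 and 12.3 kb, and MTSS1, a membrane-bending actin regulator, had 4.34 and 9.90 kb. DEPTOR, an mTOR inhibitor, had no OTX015 cover within 10 kb of its 5′ end and 5.31 kb with the combination. DENND3, a Rab exchange factor, was the member with less, at 17.4 and 17.0 kb, and it had the longest cover of the group in both lists.

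Ubiquitin and protein quality control genes had the largest median difference of the groups in the lists as deposited, 7.65 kb, with 8 of 8 covered more, 6 past 2 times and medians of 3.20 and 10.4 kb. SHARPIN, a subunit of the linear ubiquitin ligase, had 6.42 and 15.4 kb. RNF139, a ubiquitin ligase of the endoplasmic reticulum, had 3.76 and 12.1 kb. FBXO32, the F-box protein atrogin-1, had 0.673 and 8.82 kb, with a promoter peak in the combination list alone. WASHC5, listed in this group although its product acts in endosomal actin assembly, was the first of it by difference.

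Zinc finger genes, most of them in the last bins before the telomere, were covered more in 10 of 12, with medians of 4.12 and 6.43 kb and 6 past 2 times. All 12 had a promoter peak with the combination and 7 with OTX015. ZNF517 had 4.36 and 12.4 kb, ZNF251 1.93 and 8.56 kb, ZNF572 0.574 and 6.88 kb, and ZNF696 5.09 and 9.59 kb. ZFP41 and ZNF250 (5.07 and 4.37 kb, chosen after its values were seen) had less.

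The 10 listed genes of the LY6 family, small GPI-anchored or secreted proteins, had the smallest median difference of the groups in the lists as deposited, 1.65 kb, with 10 of 10 covered more, 3 past 2 times and medians of 3.52 and 5.49 kb. A promoter peak was present at 4 of them with OTX015 and at 9 with the combination. PSCA, the prostate stem cell antigen gene, had 5.88 and 14.8 kb and LY6K 3.31 and 7.26 kb. GML had 1.34 and 3.56 kb and LY6H 3.74 and 5.73 kb. The list leaves out 4 further records of the family in the band, of which LY6S (5.66 and 2.62 kb), LY6L (4.30 and 3.54 kb) and SLURP2 (3.38 and 2.56 kb) were covered less and the readthrough LYNX1-SLURP2 (2.29 and 2.90 kb) more, so the family as a whole went both ways. LY6E, an interferon-induced gene that was chosen after its values were seen, had the longest OTX015 cover of the family and differed little, at 10.6 and 10.8 kb.

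The 20 genes known from tissues other than blood all had, like the 168 genes of the band, cover within 10 kb of the 5′ end, and 10 (50%) had a promoter peak with OTX015 and 17 (85%) with the combination, beside 63.1% and 91.1% of the band's genes. Medians were 2.32 and 5.45 kb, 17 were covered more and 3 less, 9 were past 2 times, and CYP11B1 (2.05 and 0.968 kb) was at no more than 50%. ADGRB1, the adhesion receptor gene of brain with 4.39 and 1.03 kb, could be counted here but was not in this group. OC90, an otoconial protein gene of the inner ear, had 1.88 and 10.1 kb. CCN4, a matricellular protein gene, had 5.38 and 13.2 kb, TG, the thyroglobulin gene, 3.68 and 11.4 kb, and FER1L6 1.40 and 7.04 kb. SLA, an adaptor gene of blood cells, lies within the TG gene body and has peaks there. Over the TG locus, the body with 10 kb either side, 107 kb lay under OTX015 peaks and 205 kb under combination peaks.

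Most of the tallest and longest peaks of the band lay away from promoters, and all but 1 were met by a peak of the other list. The tallest OTX015 peak, chr8:142022800-142049484, was also the longest of the band, with 26.7 kb, a fold of 7.65 and 16.4 times background. It lay in no annotated gene body, 358 kb from the nearest protein-coding 5′ end, that of TSNARE1. The combination list held chr8:142023319-142049393 there, of 26.1 kb, with a fold of 5.42 and 8.42 times background. The outer ends of this region were thus nearly the same in both lists.

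The second OTX015 peak by height, chr8:141322211-141335060, lay 13.9 kb from the 5′ end of SLC45A4, a solute carrier gene, outside gene bodies. It was 12.9 kb wide with a fold of 6.89 and 14.6 times background. The combination peak there, chr8:141322241-141335044, was the tallest of its list, at a fold of 6.53 and 10.3 times background. The boundaries of this region were also nearly the same in both lists.

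In the body of NDRG1, a differentiation and stress response gene, the OTX015 peak chr8:133238204-133254573 was 16.4 kb wide with a fold of 5.91, and the combination peak chr8:133237138-133258383 was 21.2 kb wide with 5.79. These stood at 12.3 and 9.05 times background. The combination peak extended beyond the OTX015 peak on both sides. At LINC00051, a long noncoding RNA gene, chr8:142198235-142206630 had a fold of 5.91 with OTX015 (12.3 times background), and the best combination peak there had 4.55 (6.97 times). Beside the 5′ end of ZC3H3, a zinc finger gene of mRNA export, chr8:143541693-143544700 had 5.93 with OTX015 (12.4 times background) and a best fold of 5.49 with the combination (8.54 times). ZC3H3 was the single promoter-proximal locus among the 5 tallest OTX015 peaks, at 0.246 kb.

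Among the tallest combination peaks 2 more lay in the bin from 141 Mb. In the body of SLC45A4, chr8:141204189-141213933 was 9.75 kb wide with a fold of 5.74 and 99.3% of it lay under an OTX015 peak. In the antisense gene DENND3-AS1, 3.37 kb from the 5′ end of DENND3, chr8:141115116-141125218 had a fold of 5.76 and 92.8% of it lay under OTX015 peaks. Long peaks were also present at ST3GAL1, a sialyltransferase gene, where the OTX015 peak chr8:133566245-133576237 of 9.99 kb crossed the 5′ end. Within TG and SLA, the OTX015 peak chr8:133087400-133097390 was 9.99 kb and the combination peak chr8:133086421-133099539 was 13.1 kb. In SLC45A4 and CCN4 a long combination peak lay over several shorter OTX015 peaks. The one of 13.4 kb in SLC45A4, chr8:141224944-141238309, met 7 OTX015 peaks that held 59.0% of it. The one of 12.9 kb in CCN4, chr8:133200718-133213640, met 6 that held 33.2% of it.

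The exception was in the combination list. The combination peak chr8:120054441-120054626 was 186 bp wide with a fold of 5.62 and 8.77 times background, and no OTX015 peak met it. It lay in no gene body, 69.8 kb from the 5′ end of COL14A1, a collagen gene.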

How the data were processed

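H3K27ac ChIP-seq peaks of MOLM13 cells were analysed, with 1 library per treatment, and input libraries were not used here. The titles name the mark H2K27Ac and the antibody label H3K27Ac, which was followed. Per the submitters' processing notes, bcl2fastq 2.17, Trimmomatic 0.33, Bowtie 1.1.2 and MACS2 2.1.0 were used with GRCh38. The authors deposited 1 broad peak list per library with a score, a −log10 p, a −log10 q and a fold enrichment, which is a ratio over background, per peak. In all but a few peaks the deposited score was the −log10 q times 10 without its decimals. The lists give no read numbers, and background was solved from the lowest fold and −log10 p under a Poisson model with a pseudocount of 1.

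Cover is the union of peaks. Promoters were 1 kb and windows 10 kb either side of the 5′ end, the outer end of the gene record in RefSeq GRCh38.p14. Strands came from GENCODE 44, matched by identifier or symbol, for 19303 of 20037 protein-coding genes, and no coordinate was converted. No peak ended beyond a GRCh38 chromosome, while on 5 chromosomes some ended beyond the GRCh37 length. Bins began at whole megabases. The 9 gene groups held 110 entries and 109 genes, all matched. Groups, members and alternatives were chosen with earlier results of these data known. Named genes are up to 4 per group with the largest window difference, members without cover, the 8 largest differences in each direction, genes nearest the 5 tallest and 5 longest peaks of each list, and genes of the 3 most and 3 least covered bins. Wilson 95% intervals cover counting only. Alternatives were stricter, equal-number, common-enrichment and merged peaks, other overlaps, windows and bins, and the whole band. Sequence of chromosome 8 is not reported here. Scripts were tested on simulated data and ran in Python 3.11.15 with matplotlib 3.10.9, scipy 1.17.1, pandas 2.3.3 and numpy 2.4.6.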

Additional observations from a re-analysis of the deposited data

How the results depend on the processing

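Each result was recomputed under other settings, and 32 of 60 values stayed within 1.5 times the reported count or length, or within the Wilson interval of the reported share, while 28 moved. With both lists at 6.54 times background the combination held 160 peaks, 248.9 kb and 10 promoters, 0 of 27 bins were covered more, 0 genes (83 as reported) were at least 2 times as long and 163 (4 as reported) no more than 50% as long. In that setting 1.32% of OTX015 peaks and 43.8% of combination peaks met the other list. The cut lies at the lowest value of the OTX015 list, so it removed no OTX015 peak. With a −log10 q of at least 2 there were 518 and 1801 peaks over 514.3 and 2012 kb, 30 and 64 promoters, overlaps of 30.3% and 8.61%, and 11 genes at no more than 50%. With equal numbers of peaks, overlaps were 51.0% and 42.2% and 8 genes were at no more than 50%. Merging peaks within 1 kb gave 5276 combination peaks and overlaps of 64.9% and 48.2%, and asking for 50% of a peak gave 38.9% and 17.2%. With promoters of 5 kb, 163 genes had an OTX015 peak. Genes at no more than 50% numbered 2 within 50 kb and 1 over gene bodies. Taking the whole band moved no result past these limits. Cover was longer with the combination in each alternative except common enrichment. No paired analysis was possible because each treatment had 1 library, and for the same reason no library could be left out. The unequal entry levels limit the comparison: by the estimated background, peaks under 6.54 times background could enter the combination list alone. Depth itself was not measured.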

Other observations

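Noncoding genes of 8q24 outside the MYC stretch were counted without a background over other chromosomes. Of 163 long noncoding RNA genes, 146 had a peak in the gene body with OTX015 and 159 with the combination, 144 in both lists and 2 in neither. Their bodies held 557 kb under OTX015 peaks and 1135 kb under combination peaks, of 4302 kb. Of 29 miRNA genes, which are short, 10 and 15 lay under a peak, 6 of them in both lists. Of 9 snoRNA genes 3 lay under a peak in each list, and 2 did so in both.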
